A study of Mus musculus with 2669 samples.

Results

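Neurons and dividing cells of the caudal ganglionic eminence (CGE) were set against each other in 572 single cells, 430 dividing cells and 142 neurons. They were chosen among 854 CGE cells with at least 1000 detected genes and 50000 read counts, 854 of 856 CGE cells and part of a series of 2669 cells. The cells were chosen by the measured levels of 7 genes in the cell itself, with counts scaled to a common total per cell (CPM). A cell was taken as dividing where at least 2 of the 5 mitotic genes Top2a, Mki67, Ccnb1, Bub1 and Plk1 reached 10 CPM. A cell was taken as a neuron where Tubb3, the neuronal beta tubulin, and Dcx, the microtubule protein doublecortin, both reached 50 CPM while Top2a and Mki67 both stayed under 10 CPM. Of the other CGE cells, 14 met both rules and 268 met neither, and these entered neither class.

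The series measured polyadenylated RNA in cells dissected from ganglionic eminences of CD1 mice, an outbred stock, at the embryonic ages E12.5 and E14.5, with no transgene or treatment named. Cells were caught on Fluidigm C1 chips made for small cells and amplified with Smart-seq v4. CGE came from 6 chips at E12.5, with 467 cells passing the filter, of which 267 were dividing and 67 were neurons, and from 5 chips at E14.5, with 387, 163 and 75. No animal or litter is named, so the chip was the replicate, and p-values measure how chips vary, some of which may be technical. Cells of the medial ganglionic eminence (MGE) at E12.5, with 666 neurons and dividing cells, served as a second origin for 1 comparison.

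The CGE is a swelling of the embryonic ventral forebrain. Radial glia line its ventricle and divide, their daughters divide again as intermediate progenitors in the subventricular zone, and postmitotic neurons leave it, many as cortical interneurons that use GABA. On leaving the cycle a cell stops expressing the genes of replication and mitosis. Promoters of many mitotic genes are held silent in resting cells by the DREAM complex at a CHR element, often beside CCAAT boxes bound by NF-Y. A young neuron then builds a neuronal cytoskeleton and, later, synapses and channels.

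The comparison within chips used 9 chips that had at least 5 cells of each class, 4 at E12.5 (175, 182, 186 and 187) and 5 at E14.5 (160, 161, 162, 189-2 and 190-2). They gave 311 dividing cells and 138 neurons, 15 to 50 and 8 to 30 per chip. The other CGE chips, 172 and 179, had 2 neurons each. The counts of all cells of a class on a chip were added up, which gave 13669428 to 50324179 counts for dividing cells and 7325268 to 28233833 for neurons. Chips fell into 5 with a median of 3480 to 4306.5 detected genes per cell and 4 (186, 187, 189-2 and 190-2) with 1630.5 to 2673. Levels below are CPM of the summed counts, as mean ± SD over the 9 chips, and since reads were not scaled to gene length they compare a gene between classes, not genes with each other.

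Promoters of 4 mitotic genes and of the neuronal tubulin Tuba1a are shown. They were picked among named genes whose promoters hold a match to the letters below, so that they hold one is not a result. The mitotic genes were lower, and Tuba1a higher, in neurons on every chip. The sequences are from RefSeq on GRCm38.p6 and run from 250 bases before to 50 after the start of the gene, 5′ to 3′ on its own strand. Capitals mark the CHR letters TTTGAA and the CCAAT letters, also where they lie on the other strand (TTCAAA and ATTGG).
Cdk1, chr10:69352863-69353162, minus strand: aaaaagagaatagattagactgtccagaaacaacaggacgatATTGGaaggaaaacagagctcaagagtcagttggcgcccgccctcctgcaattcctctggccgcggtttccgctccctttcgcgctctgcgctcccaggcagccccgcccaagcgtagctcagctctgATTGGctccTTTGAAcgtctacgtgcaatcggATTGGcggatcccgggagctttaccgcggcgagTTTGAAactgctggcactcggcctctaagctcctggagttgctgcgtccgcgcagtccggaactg
Hmmr, chr11:40733388-40733687, minus strand: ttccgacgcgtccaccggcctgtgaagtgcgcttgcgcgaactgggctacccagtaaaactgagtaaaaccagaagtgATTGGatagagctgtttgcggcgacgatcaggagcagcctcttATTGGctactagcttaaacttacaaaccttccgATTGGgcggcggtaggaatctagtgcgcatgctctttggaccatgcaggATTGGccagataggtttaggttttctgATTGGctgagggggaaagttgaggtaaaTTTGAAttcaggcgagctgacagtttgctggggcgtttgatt
Ttk, chr9:83834439-83834738, plus strand: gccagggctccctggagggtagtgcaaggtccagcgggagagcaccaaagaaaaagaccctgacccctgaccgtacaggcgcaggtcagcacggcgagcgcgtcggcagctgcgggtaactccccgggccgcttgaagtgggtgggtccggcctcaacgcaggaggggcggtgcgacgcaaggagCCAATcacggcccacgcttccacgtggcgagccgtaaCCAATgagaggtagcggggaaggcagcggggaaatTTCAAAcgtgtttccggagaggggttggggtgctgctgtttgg
Cdc20, chr4:118437294-118437593, minus strand: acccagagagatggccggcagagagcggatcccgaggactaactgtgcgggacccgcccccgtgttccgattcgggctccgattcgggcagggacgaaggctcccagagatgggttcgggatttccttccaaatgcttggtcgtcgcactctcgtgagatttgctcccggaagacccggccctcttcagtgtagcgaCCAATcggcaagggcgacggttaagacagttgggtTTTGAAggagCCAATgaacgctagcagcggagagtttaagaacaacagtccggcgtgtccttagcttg
Tuba1a, chr15:98953452-98953751, minus strand: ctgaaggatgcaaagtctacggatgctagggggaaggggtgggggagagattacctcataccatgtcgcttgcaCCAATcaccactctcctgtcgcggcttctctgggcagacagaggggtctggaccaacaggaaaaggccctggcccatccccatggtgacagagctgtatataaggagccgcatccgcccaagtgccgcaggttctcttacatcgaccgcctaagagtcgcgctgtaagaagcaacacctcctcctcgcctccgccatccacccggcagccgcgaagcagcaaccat
In the 4 mitotic promoters the CHR letters lie close to the start: in Cdk1 at 71 and 15 bases before it, in Cdc20 at 18 before it, and in Hmmr and Ttk at positions 9 and 8 after it. Tuba1a holds a CCAAT box 176 bases before its start and no TTTGAA in this window. Such a match is a description of letters and not a measured binding site.

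The same search was run over all promoters in the table. Of 202 genes that were lower in neurons on every chip, 159 matched, with 180 promoters, since a gene can have several starts. TTTGAA, on either strand, was in 26.1% of these promoters, in 11.6% of those of all genes tested and in 17.9% of all promoters of the same length. CCAAT was in 55% of them, against 38.4% and 37.4%, and both motifs together were in 19.4%, against 4.79% and 6.95%. The E-box letters CAGCTG, which proneural factors can bind and which overlap neither motif, were in 11.7% of them, against 14.8% and 16.3%. Of 20 genes higher on every chip only 13 matched, with 16 promoters, of which 18.8% held TTTGAA and 0 held both motifs. Of the 12 G2 and M phase genes that were lower on every chip 10 matched, and 8 of them (Bub1b, Ccnb2, Cdc20, Cdk1, Cenpa, Hmgb2, Hmmr and Ttk) held both motifs. The 202 genes include these G2 and M phase genes, which vary together with the mitotic genes used for the choice. The shares of promoters therefore describe the classes and are no independent evidence.

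The genes used for the choice differed by construction and are given as a description. Dividing cells had a median of 383.3 CPM for Top2a, 105.8 for Mki67 and 363.6 for Ccnb1, and neurons 0.783, 0 and 0. Of the dividing cells, 160 passed with 2 of the mitotic genes, 128 with 3, 92 with 4 and 50 with all 5, whereas 102 neurons had none at 10 CPM and 40 had 1. At the edge, the second highest mitotic gene stood at 10.1 CPM in the lowest dividing cell that passed with 2 genes and at 8.34 in the highest cell that failed with 1. The lower of Tubb3 and Dcx was 58.7 CPM in the weakest neuron, with a median of 878 and 8 neurons under 100. Of 126 cells that missed the neuron class by Tubb3 or Dcx alone, the highest had 37.8 CPM of the lower gene.

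The dividing class was not free of neuronal RNA. Its cells had a median of 759.1 CPM for Tubb3 and 523.3 for Dcx, against 1718 and 1442 in neurons. In 280 of 430 dividing cells (65.1%) both genes reached the 50 CPM asked of a neuron, 150 of 267 (56.2%) at E12.5 and 130 of 163 (79.8%) at E14.5. Per chip this share ran from 26.1% to 76.1% with a median of 51.9% at E12.5, and from 26.7% to 97.6% with a median of 77.1% at E14.5. The groups of chips overlapped, and the shares of both ages were not compared by a test. Dividing cells on either side of that level are described separately further down.

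**Figure D1:**
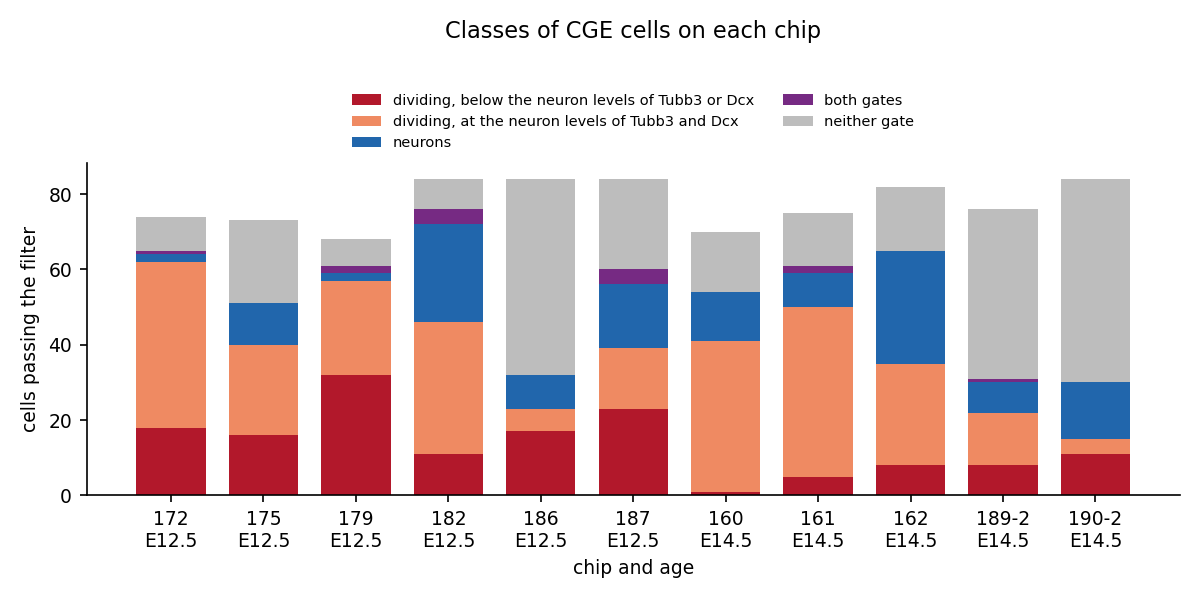
CGE cells that passed the filter on each of 11 chips (bars, number of cells), divided into dividing cells below and at the Tubb3 and Dcx levels asked of neurons, neurons, cells that met both rules and cells that met neither. Chips 172 and 179 hold 2 neurons each, and on chip 160 all dividing cells but 1 carry Tubb3 and Dcx at neuron levels.

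The mean share of neurons among the chosen cells was higher at E14.5, by less than chips of 1 age varied. Neurons were 20.4% ± 14.1 of neurons and dividing cells at E12.5 (SD, n = 6 chips, lowest 3.12%, median 24.8%, highest 36.1%) and 32.4% ± 14.96 at E14.5 (n = 5 chips, 15.2%, 26.7% and 50%). The groups of chips overlapped, and the difference of 11.98 percentage points did not pass the test (two-sided exact permutation test, p = 0.201, adjusted over 2 tests 0.201, smallest p the design allows 0.00217). On a single chip the exact binomial 95% interval was wide, 0.381% to 10.8% on chip 172 and 31.3% to 68.7% on chip 190-2, and covers counting error only.

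Neurons had fewer detected genes than dividing cells of the same chip, but both classes were chosen by which genes a cell showed. A dividing cell had to reach 10 CPM for at least 2 mitotic genes. A neuron had to reach 50 CPM for Tubb3 and Dcx and stay under 10 CPM for Top2a and Mki67. The test below therefore describes the chosen classes, and the part of the choice in this difference was not tested. The difference between the medians of both classes was -395.8 genes (SD 248.8, n = 9 chips), lower on 8 of 9 chips and higher on chip 187 alone, by 129 genes (two-sided exact permutation test by sign flips, p = 0.00781, adjusted over 2 tests 0.0156, smallest p 0.00391). With every cell thinned to 50000 counts the difference was -303.8 genes, lower on 8 of 9 chips (exact permutation p = 0.00781). The classes were chosen again on the thinned counts, where any read of a mitotic gene reached 10 CPM, so they need not hold the same cells. Over all cells the medians were 3788 genes in dividing cells and 3307 in neurons at a similar depth, 985739 and 943676 counts per cell. The dividing cells were not alike in this. Those at the neuron levels of Tubb3 and Dcx had a median of 3931 genes, and those below them 3125.5, fewer than neurons. The number of genes with any count moves with these classes, and its part in the gene differences below was not tested.

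Across all genes, no gene passed the test. On simulated counts of this size the test recovered few of the changed genes, also among those with the strongest changes, so a gene that did not pass is not shown to be equal in both classes. With counts summed per chip and class, the chip as a block and the 7 genes of the choice left out, edgeR's quasi-likelihood test called 0 of 11987 genes at a Benjamini-Hochberg adjusted p under 0.05 for the mean of both ages (0%), with 1106 genes at an unadjusted p under 0.05, of which 1072 were lower and 34 higher in neurons. The smallest adjusted p was 0.0833, for Ttk and Chek2. At E12.5 alone it called 0 genes (0%, 566 at an unadjusted p under 0.05) and at E14.5 alone 0 genes (0%, 717). By limma on log2(mean CPM of a chip's cells + 1) with the same block, 40 genes passed as lower in neurons (0.334%) and 2 as higher (0.0167%), whereas DESeq2's Wald test called 1193 lower and 23 higher. The words higher and lower below therefore describe chips and not genes that passed edgeR's test, unless limma is named.

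The genes that passed limma as lower included the mitotic kinesins Kif15, Kif18a, Kif18b and Kif20b, the centromere proteins Cenpq and Cenpw, the phosphatase Cdc25c that activates Cdk1, and separase, Espl1, all named after their values were seen. Of these 40 genes, 32 were also lower on every chip. The mitotic genes among them vary together with those used for the choice, so their passing describes the classes.

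As a plain count over chips, 202 of 11987 genes (1.69%) were lower in neurons on all 9 chips and 20 (0.167%) were higher on all 9. On 8 or 9 chips, 837 genes (6.98%) were lower and 119 (0.993%) higher. In the fit, 75.5% of all genes had a fold change below 0 and 24.5% above. With TMM scaling of the summed counts the numbers were 166 and 39, of which 164 and 20 were shared. The median log2 fold change over all genes was -0.95 in the fit, -1.04 with total counts in place of TMM and -0.85 with DESeq2's size factors. It was -0.17 when the same number of cells of each class was drawn on each chip. With all cells it was -0.15 in edgeR without the chip block. By limma it was -0.58 on log2(mean CPM + 1) and -0.18 on log2(mean CPM + 10). The size of the median shift thus differs with the fit as well as with the cells summed, and its cause was not tested. A further setting, added after the data were seen, left out the dividing cells that reached 50 CPM for both Tubb3 and Dcx. There the median over all genes was 0.17 for the mean of both ages, -0.23 at E12.5 and 0.55 at E14.5. Without those dividing cells the median was thus above 0 for the mean of both ages and at E14.5, but below 0 at E12.5. The 6 genes that passed edgeR's test in that setting, for the mean of both ages, were all lower in neurons. The setting also changed the numbers of cells summed, and chip 160, with 1 dividing cell below the level, dropped out. What moved the median was not tested. Values of gene lists below are given with both the full and the equal-cell median and are to be read against -0.95 and -0.17.

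The genes of G2 and mitosis were lower in neurons on nearly every chip. Of 25 tested genes of this list, 12 were lower on every chip (1.69% of all genes), or 11 with TMM scaling, where Ccnb2 was not. On 8 or 9 chips 25 of 25 were lower (6.98% of all genes), and 0 were higher on 8 chips or more. The median log2 fold change was -4.11, and -3.70 with equal cell numbers. By edgeR 0 of 25 passed, and by limma 3 did, Ttk, Hmmr and Nusap1. Because these genes vary together with the mitotic genes used for the choice, their counts describe the classes and are no independent evidence.

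Ttk (ENSMUSG00000038379), the spindle checkpoint kinase Mps1, ranged in dividing cells from 1.34 to 198 CPM with a median of 101, and in neurons from 0 to 3.86 with a median of 0. The classes met only through chip 186, where dividing cells had 1.34 CPM and neurons 0, and chip 182, where neurons had 3.86. Its means were 109 ± 60.4 in dividing cells and 0.495 ± 1.27 in neurons, a difference of -5.87 on the log2(mean CPM + 1) scale (limma adjusted p = 0.00973, edgeR adjusted p = 0.0833, lower on 9 of 9 chips).

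Hmmr (ENSMUSG00000020330), a spindle protein and hyaluronan receptor, stood at 213 ± 140.2 CPM in dividing cells and 11.6 ± 22.96 in neurons, with a range of 78.03 to 518 (median 179.9) against 0 to 69.6 (median 0.116). It was lower on every chip, but on chip 160 by little, 69.6 against 83.8 CPM (limma difference -5.72, adjusted p = 0.0269). Smc4, a condensin subunit that compacts chromosomes, was at 755 ± 463 and 84.4 ± 94.8, with neurons between 0.983 and 272 CPM and dividing cells between 171 and 1542. Bub1b, a kinase of the spindle checkpoint, was at 128 ± 73.5 and 16.3 ± 24.7. Both were lower on 9 of 9 chips and passed neither test (edgeR adjusted p = 0.258 and 0.265, limma 0.0581 and 0.0595).

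Cdk1, Cdc20, Nusap1, Chek2, Nde1, Sgo1 and Gli3 were singled out after their values were seen. Cdk1 (ENSMUSG00000019942), the mitotic cyclin-dependent kinase, ranged from 194 to 506 CPM in dividing cells and from 0.281 to 157 in neurons (medians 296 and 52.6), groups that did not overlap. Cdc20, which activates the anaphase-promoting complex, was at 258 ± 222 against 30.1 ± 16.3 CPM, and Nusap1, which binds spindle microtubules, at 338 ± 248 against 28.3 ± 36.6. Outside the lists, the checkpoint kinase Chek2 (53.7 ± 64.4 against 0.0335 ± 0.0535, at most 0.142 in neurons), the dynein-associated protein Nde1 (155 ± 76.3 against 4.43 ± 8.20) and shugoshin Sgo1, which guards sister centromeres (195 ± 62.6 against 6.34 ± 11.5), were lower on every chip. Each of the 3 passed limma with adjusted p = 0.00973, which for genes that vary with the mitotic genes of the choice is no independent evidence. Gli3, a zinc finger factor of the Hedgehog pathway that forebrain progenitors express, stood at 59.03 ± 47.8 CPM in dividing cells and 4.11 ± 5.83 in neurons (limma adjusted p = 0.0395, lower on 9 of 9).

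Genes of S phase followed the same direction with more exceptions. Of 23 tested, 6 were lower on every chip (1.69% of all genes), Slbp, Pola1, Rrm2, Tk1, Tyms and Mcm6. On 8 or 9 chips 16 were lower (6.98% of all genes), and 0 were higher on 8 or more. The median log2 fold change was -3.68 (-2.70 with equal cell numbers). Rrm2 (ENSMUSG00000020649), the regulated subunit of ribonucleotide reductase, ranged from 249 to 752 CPM in dividing cells and from 0.211 to 134 in neurons (medians 425 and 36.7), without overlap. It passed limma with a difference of -4.25 (adjusted p = 0.0395), as did Tk1, the thymidine kinase, at 68.1 ± 46.8 against 1.58 ± 3.38 CPM (adjusted p = 0.0183). The replicative helicase subunits Mcm2 (160.2 ± 83.6 against 26.6 ± 42.3) and Mcm3 (63.1 ± 49.5 against 10.9 ± 20.6) were lower on 8 of 9 chips. The exceptions were chip 162 for Mcm2, at 125 CPM in neurons and 123 in dividing cells, and chip 189-2 for Mcm3, at 61.8 and 49.6. S phase genes too vary together with the mitotic genes used for the choice. Their counts and p-values therefore describe the classes and are no independent evidence.

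Of 20 tested genes that govern G1, 2 were lower on every chip (1.69% of all genes), Cdk2 and Cdkn1b (Cdk2 alone with TMM scaling). The median was -3.08 (-1.78 with equal cell numbers). Cdk2, the kinase of the G1 to S transition, was at 45.8 ± 27.7 against 5.45 ± 11.2 CPM. Cdkn1b, the inhibitor p27 that accumulates in cells leaving the cycle, was also lower in neurons, at 54.1 ± 28.4 against 20.8 ± 21.6 (edgeR adjusted p = 0.617). Ccnd2, a G1 cyclin of neural progenitors, kept a sizeable level in both classes, 907 ± 504 and 423 ± 280.2 CPM, and was lower in neurons on 8 of 9 chips.

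**Figure D2:**
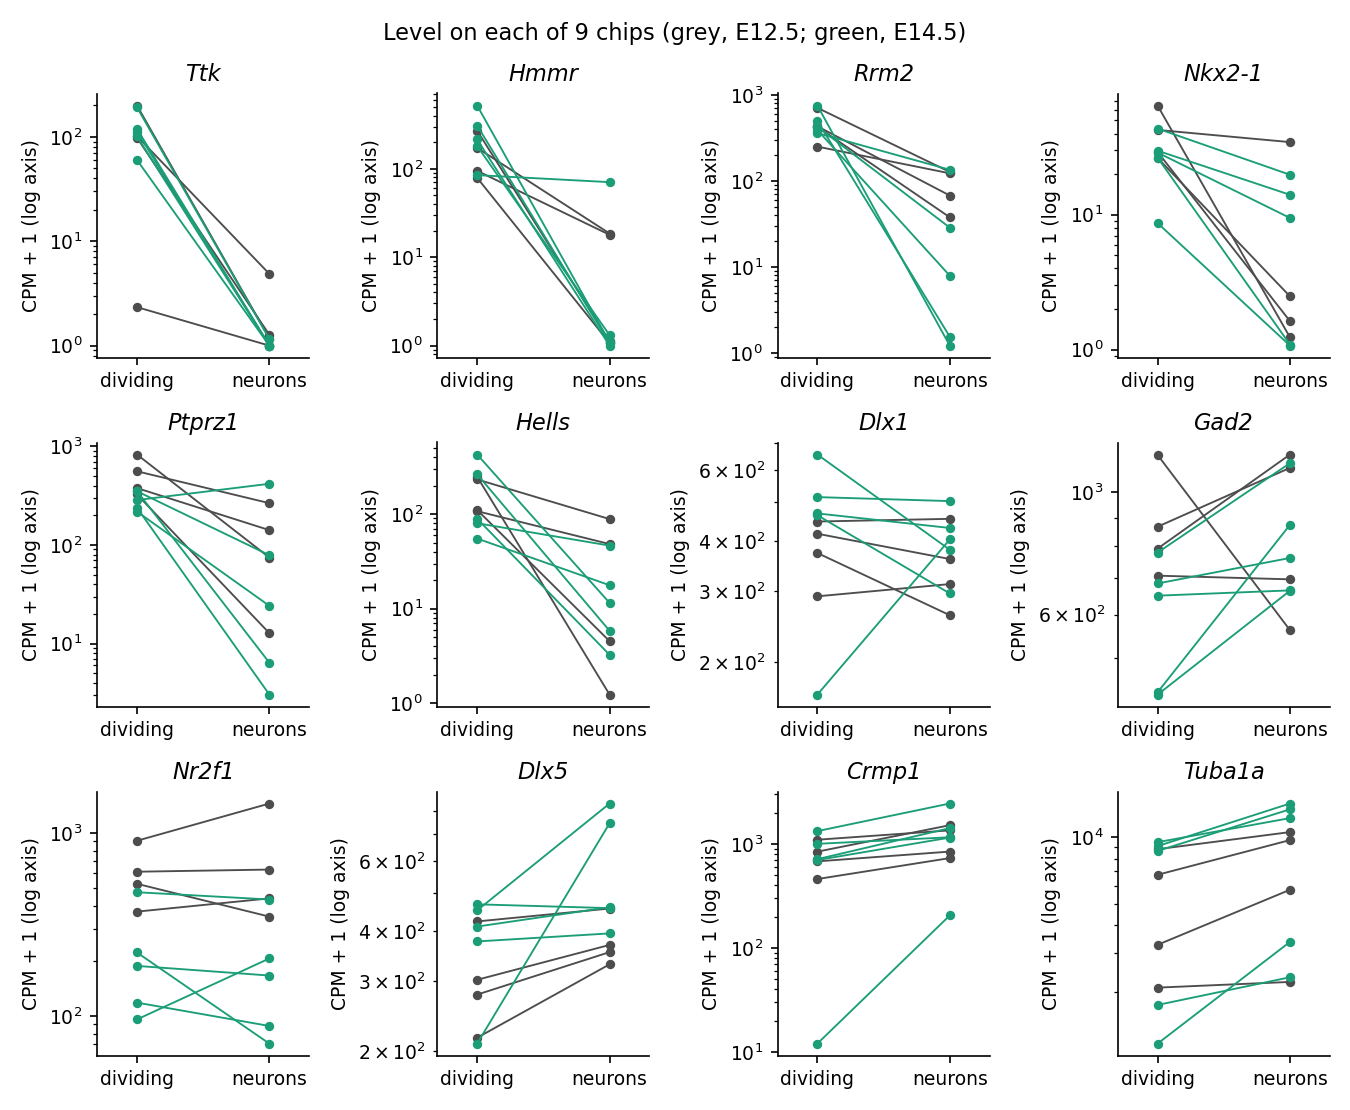
Level of 12 genes in the dividing cells and in the neurons of each of 9 chips (vertical axis, CPM + 1 on a log axis; 1 line per chip, grey for E12.5 and green for E14.5). Ttk, Hmmr, Rrm2, Hells and Nkx2-1 are lower in neurons on every chip, Tuba1a and Crmp1 are higher on every chip, and the lines of Dlx1, Gad2 and Nr2f1 cross.

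Of 20 tested radial glia genes, which mark the progenitor state, 19 had a fold change below 0 (75.5% of all genes had), 0 were lower on every chip, 5 were lower on 8 or 9 (6.98% of all genes), and the median was -2.81 (-1.82 with equal cell numbers). Ptprz1, a receptor tyrosine phosphatase of radial glia, ranged from 217 to 825 CPM in dividing cells (median 349.6) and from 2.04 to 416 in neurons (median 73.4). Only chip 161 had more in neurons, 416 against 284 CPM, and neither test passed (edgeR adjusted p = 0.318, limma 0.0581). The glial glutamate transporter Slc1a3 was at 59.8 ± 26.01 against 10.1 ± 20.6, again with chip 161 as the exception. Tnc, an extracellular matrix protein, was low in both classes (7.89 ± 10.1 and 0.804 ± 2.41), as was the Notch target Hes5 (17.2 ± 18.1 and 10.5 ± 23.4). Fabp7, the brain lipid-binding protein of radial glia, was singled out after its values were seen. It was present in both classes, at 570.4 ± 313 and 226 ± 169.8 CPM, and higher in neurons on chips 161 and 189-2.

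In the Notch pathway, by which a committed cell holds its neighbours back, 17 genes were tested, with a median of -3.53 (-2.75 with equal cell numbers). Of these, 5 were lower on 8 or 9 chips (6.98% of all genes) and 1 was lower on every chip (1.69% of all genes). That gene was the receptor Notch2, at 21.8 ± 23.9 against 1.36 ± 2.59 CPM. The ligand Jag1 (22.3 ± 18.8 against 2.81 ± 7.93), the effector Hey1 (23.3 ± 22.1 against 4.82 ± 10.3) and the inhibitor Numb (13.8 ± 10.5 against 1.06 ± 2.61) were each lower on 8 of 9 chips. The ligand Dll1, which newly committed cells present, had similar means, 49.2 ± 41.5 and 39.98 ± 44.95, and was higher in neurons on 5 of 9 chips. Hes6, which promotes neurogenesis, was likewise at 438 ± 403 and 369 ± 188, higher in neurons on 4 of 9.

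Proneural genes showed no common direction. Of 16 tested, 6 had a fold change above 0 and 10 below, 0 were lower or higher on every chip, and the median was -0.53 (-0.18 with equal cell numbers), close to all genes in the second case. Insm1, a zinc finger factor of basal progenitors, was at 128 ± 64.4 CPM in dividing cells against 53.4 ± 51.4 in neurons, Gadd45g, which new neurons switch on in passing, at 387 ± 353 against 206 ± 245, and the bHLH partner Tcf12 at 402 ± 134 against 237 ± 279. Gsx1, a homeodomain factor of ganglionic progenitors, was near the floor in neurons, 0.201 ± 0.509 against 6.20 ± 11.4 CPM.

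In the other direction, 21 of 25 tested pan-neuronal genes, mostly of the cytoskeleton, had a fold change above 0 (24.5% of all genes had) and 4 below. Of the 25, 2 were higher on every chip (0.167% of all genes), Tuba1a and Crmp1 (4 with TMM scaling). On 8 or 9 chips 6 were higher (0.993% of all genes), and 0 were lower on 8 or more. The median was 0.54 (0.63 with equal cell numbers). This list varies with Tubb3 and Dcx, which chose the neurons, so its counts too describe the classes.

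Tuba1a (ENSMUSG00000072235), the alpha tubulin of young neurons, was the gene of the list that passed limma. On the 4 E12.5 chips (175, 182, 186 and 187) it stood at 6757, 8815, 2095 and 3267 CPM in dividing cells and at 9688, 10526, 2223 and 5787 in neurons. On the 5 E14.5 chips (160, 161, 162, 189-2 and 190-2) it stood at 8657, 9480.2, 9098, 1171 and 1750.1 against 13333, 12170.0, 14160.0, 3369 and 2334. The pairs differed the same way on every chip while the chips themselves spread widely, so that the classes overlapped. The log2 fold change was 0.70 ± 0.15 (SE) (edgeR adjusted p = 0.250, limma adjusted p = 0.00973, higher on 9 of 9). Tuba1a has near-identical paralogs, between which reads can be split or dropped, so its level is uncertain while its direction compares the same counting in both classes.

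Crmp1, a collapsin response mediator of growing axons, was at 1202 ± 619.7 CPM in neurons and 759 ± 382 in dividing cells, higher on 9 of 9 chips (edgeR adjusted p = 0.401). Rtn1, a reticulon of neurons, was at 1477 ± 535 against 898 ± 492 and higher on 8 of 9, all but chip 189-2. Map1b, a microtubule-associated protein of growing axons, was at 4280.5 ± 1812 against 3048 ± 1002 and higher on 7 of 9. Dividing cells thus held an appreciable level of each of these neuronal genes. Genes outside the lists that were higher on all 9 chips, picked after their values were seen, included Nnat, an imprinted membrane protein of neurons (1685 ± 667 against 980.1 ± 587), the neuronal membrane glycoprotein Gpm6a (1303 ± 1041 against 643 ± 374) and Ftl1, the ferritin light chain (2728 ± 1626 against 1822 ± 876, limma adjusted p = 0.0273).

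Genes of mature neuronal function had no such direction. Of 20 tested synaptic vesicle genes 9 had a fold change above 0 and 11 below, 0 were the same way on 8 chips or more, and the median was -0.22 (0.48 with equal cell numbers). Of 21 tested ion channel and transmitter receptor genes 8 were above 0 and 13 below, and the median was -1.43 (0.73 with equal cell numbers). Both medians thus had the other sign in the equal-cell draw. The chloride importer Slc12a2 (NKCC1), typical of immature neurons, was at 129 ± 96.8 CPM in dividing cells and 57.2 ± 68.2 in neurons. The exporter Slc12a5 (KCC2), typical of mature ones, was at 2.03 ± 3.80 and 0.302 ± 0.724.

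The GABAergic program was present in both classes. Of 14 tested genes 0 passed the test, 9 had a fold change above 0 and 5 below, 0 were the same way on every chip (Dlx5 was higher on all 9 with TMM scaling), and the median was 0.12 (0.22 with equal cell numbers). The homeodomain factor Dlx1 (ENSMUSG00000041911), a regulator of GABAergic fate, ranged from 165 to 654 CPM in dividing cells (median 446) and from 260.3 to 501 in neurons (median 379), with a log2 fold change of 0.02 ± 0.35 (SE) (edgeR adjusted p = 1). Its partner Dlx2 was at 269 ± 167 and 298 ± 209. Dlx5, which they activate, was at 347 ± 99.5 and 489 ± 179 and higher in neurons on 8 of 9 chips, all but chip 160.

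The GABA-synthesizing enzyme Gad2 was at 722 ± 225 CPM in dividing cells, from 429 to 1168, and at 847 ± 232 in neurons, from 561 to 1170.2, higher in neurons on 7 of 9 chips. Gad1, the other enzyme, was at 429 ± 198 and 535 ± 316 and higher on 5 of 9. The noncoding RNA Dlx6os1, transcribed through the Dlx5 and Dlx6 locus, was at 1498 ± 655 and 1826 ± 1230.2 and higher on 7 of 9. Whether the counting used strand is not given in the sources used here, so its reads and those of the overlapping Dlx6 may not be told apart. The 8 neurons of chip 189-2 stood apart in this group: their Gad1 was 26.8 CPM against 799 in the dividing cells of that chip, and their Dlx6os1 107 against 1114. The log2 fold changes without that chip were 0.69 for Gad1 and 0.46 for Dlx6os1, and 0.36 ± 0.54 (SE) and 0.20 ± 0.31 (SE) with it, and neither passed the test.

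Genes of regional origin were found in both classes as well. Of 11 tested CGE lineage genes 0 were the same way on every chip, and the median was -0.28 (-0.05 with equal cell numbers). The nuclear receptor Nr2f2 (COUP-TFII), a marker of CGE, was at 169 ± 161 CPM in dividing cells and 172 ± 170.1 in neurons, and Nr2f1 (COUP-TFI) at 389.5 ± 267 and 424 ± 425. Both varied far more between chips, 26.7 to 462 CPM of Nr2f2 in dividing cells, than between classes. The zinc finger factors Sp8 (50.2 ± 63.4 and 52.8 ± 61.1) and Sp9 (226 ± 139.7 and 259 ± 159.7) and the homeodomain factor Prox1 (64.6 ± 42.3 and 37.00 ± 45.00) showed no common direction over chips.

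Of 12 tested MGE lineage genes 6 were above 0 and 6 below, with a median of 0.09 (1.01 with equal cell numbers). Nkx2-1 (ENSMUSG00000001496), which specifies the MGE and marks its progenitors, was the 1 gene of these 12 lower on every chip (1.69% of all genes). In dividing cells at neuron levels of Tubb3 and Dcx, described further down on partly other chips, its highest chip had 273 CPM (median 29.7). With all dividing cells of a chip summed, levels were lower. On the 9 chips of the comparison Nkx2-1 ranged from 7.68 to 63.5 CPM in dividing cells (median 28.2) and from 0.0702 to 33.5 in neurons (median 1.48), groups that overlapped (edgeR adjusted p = 0.457). Lhx6, which acts after Nkx2-1 in migrating interneurons, was at 138 ± 115 in dividing cells and 314 ± 276 in neurons and higher on 7 of 9 chips (edgeR adjusted p = 0.869). On chip 186 it was nearly absent from both classes, at 0.397 and 0.465 CPM.

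Among 17 tested striatal and lateral eminence genes, 7 were above 0 and 10 below, 0 were the same way on 8 chips or more, and the median was -0.19 (0.47 with equal cell numbers). Meis2, a homeodomain factor of lateral and caudal eminence, was at 581 ± 179 and 484 ± 227 CPM. Isl1, a LIM factor of striatal projection neurons, was at 102 ± 91.9 and 282 ± 301, with neurons of chips 186 and 189-2 at 748 and 741 CPM and those of chip 190-2 at 6.67. Foxp2, a forkhead factor, was at 275 ± 296 and 74.9 ± 67.9 and lower on 7 of 9 chips. Of 23 tested migration and guidance genes 0 were the same way on every chip, and the median was -0.65 (-0.09 with equal cell numbers). The guidance ligand Slit1 was at 32.8 ± 27.6 and 10.2 ± 16.9 CPM, and the neuregulin receptor Erbb4, which interneurons use in migration, at 128 ± 86.3 and 108 ± 151.

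Chromatin and splicing factors that are known to exchange subunits or paralogs at cell cycle exit gave mixed values. In the BAF remodelling complex, Actl6a and Phf10 belong to the progenitor form and Actl6b and Ss18l1 to the neuronal form. Phf10 was at 74.4 ± 86.6 CPM in dividing cells and 10.00 ± 21.2 in neurons and lower on 8 of 9 chips. Actl6a was at 202 ± 121 and 126 ± 72.1 and lower on 7 of 9. Actl6b was at 45.9 ± 43.8 and 83.9 ± 74.2 and higher on 5 of 9, and Ss18l1 at 88.2 ± 61.4 and 82.5 ± 70.99 and higher on 4 of 9. Of the 12 tested BAF genes 0 were the same way on every chip, with a median of -0.53 (-0.16 with equal cell numbers).

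Of 16 tested splicing regulators 5 were above 0 and 11 below, 0 were the same way on 8 chips or more, and the median was -0.42 (0.06 with equal cell numbers). Ptbp1, the repressor of neuronal exons in progenitors, was at 33.3 ± 36.95 and 46.5 ± 38.9 CPM, and its neuronal paralog Ptbp2 at 410.0 ± 163 and 496 ± 275. Srrm4, an activator of neuronal microexons, was at 46.5 ± 27.8 and 64.98 ± 65.5. Of 13 tested genes of REST, the repressor of neuronal genes, and its partners 0 were the same way on every chip, with a median of -0.37 (-0.27 with equal cell numbers).

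Of 16 tested DNA methylation and Polycomb genes 1 was lower on every chip (1.69% of all genes), and the median was -1.12 (-0.61 with equal cell numbers). That gene was Hells, a helicase needed for DNA methylation, at 178 ± 122 CPM in dividing cells and 24.3 ± 29.8 in neurons (edgeR adjusted p = 0.382). Uhrf1, which brings Dnmt1 to replicated DNA, was at 75.9 ± 64.02 and 5.80 ± 9.24 and lower on 8 of 9 chips, all but chip 189-2. Of 19 tested glycolysis genes 0 were the same way on every chip (Ldha was lower on all 9 with TMM scaling), with a median of -0.54 (-0.03 with equal cell numbers). Ldha, lactate dehydrogenase A, was at 211 ± 94.9 and 100.4 ± 98.9 CPM.

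**Figure D3:**
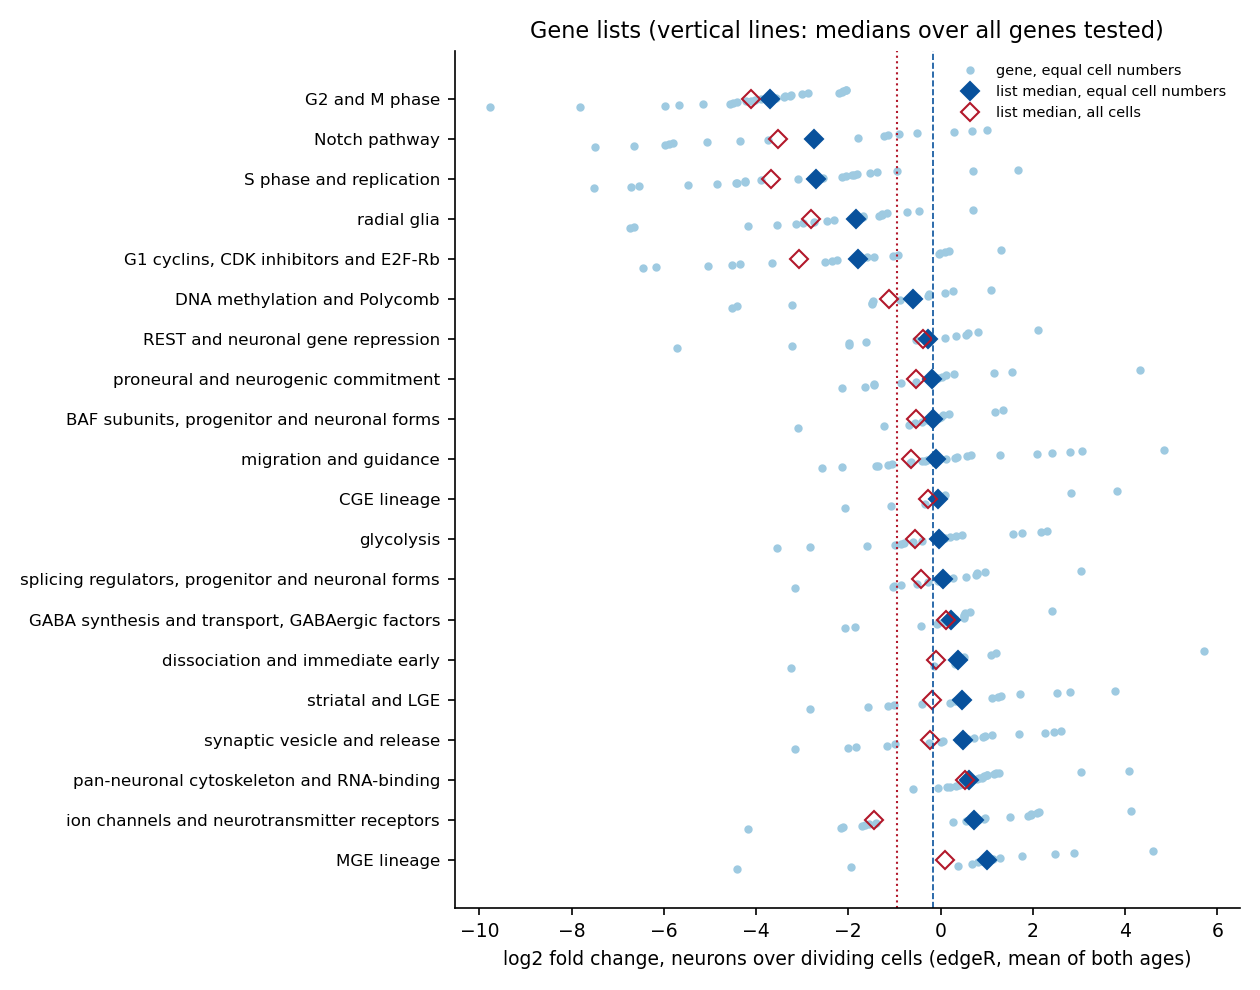
Log2 fold change of neurons over dividing cells (edgeR, mean of both ages) for the tested genes of 20 lists, 1 list per row. Points are genes with equal cell numbers of both classes, filled diamonds the list medians of these, open diamonds the medians with all cells, and the vertical lines the medians over all genes (-0.17 dashed, -0.95 dotted). The G2 and M, Notch and S phase lists lie farthest to the left, at -3.70, -2.75 and -2.70.

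Dividing cells were then divided by the neuron rule for Tubb3 and Dcx, a division chosen after the data were seen. On 9 chips (161, 162, 172, 175, 179, 182, 186, 187 and 189-2) there were at least 5 dividing cells on either side of it. Cells at neuron levels had a median of 3931 detected genes and the others 3125.5, and the part of this difference in the values below was not tested. Among 7723 genes at 20 CPM or more in either part, 66 (0.855%) were higher on all 9 chips in the dividing cells with neuron levels and 8 (0.104%) were lower on all 9, and 450 (5.83%) and 77 (0.997%) were so on 8 or 9. Cells below the level still held neuronal RNA, Tubb3 at 558 ± 438 CPM and Dcx at 259 ± 426, since missing the level for either gene was enough. No test was made, and levels of neurons are from the 7 of these chips with at least 5 neurons.

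Of 22 pan-neuronal genes 4 were higher on 8 or 9 chips (18.2%, against 5.83% of all genes) and 0 lower. This list varies with Tubb3 and Dcx, by which the dividing cells were divided, so its counts describe the division only. The other lists given below can vary with Tubb3 and Dcx too, so their counts likewise describe the division and are no independent evidence. Tuba1a stood at 3787 ± 1553 CPM in dividing cells below the neuron levels, 6301 ± 3370.4 in those at them and 8275 ± 4541 in neurons. Mapt, the axonal protein tau, stood at 50.04 ± 86.5, 136 ± 44.1 and 193 ± 130.1. Of 13 GABAergic genes 4 were higher on 8 or 9 chips (30.8%) and 0 lower. Dlx6os1 was higher on all 9, at 863 ± 305, 1644 ± 746 and 1931 ± 1394 CPM, and Gad2 on 8, at 674 ± 462, 779 ± 258 and 869 ± 256.

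Of 25 G2 and M phase genes 4 were lower on 8 or 9 chips (16%, against 0.997% of all genes), Ube2c, Cdk1, Cenpa and Hmgb2, and 0 higher. Cdk1 stood at 624 ± 327 CPM below the neuron levels, 359 ± 223 at them and 70.97 ± 63.5 in neurons. Hmgb2, a chromatin protein of cycling cells, was lower on all 9, at 697 ± 258, 404 ± 219.9 and 119 ± 49.8, and so was the centromeric histone Cenpa, at 428 ± 188, 175 ± 96.4 and 32.02 ± 32.03. For radial glia genes only Dbi, the diazepam-binding inhibitor, was lower on 8 or 9 of the chips, 1 of 18 genes, at 505 ± 315, 256 ± 131 and 148 ± 117. Fabp7 stood at 1157 ± 718, 453 ± 392 and 271 ± 162 and was lower on 7 of 9.

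Of 12 BAF genes 3 were higher on 8 or 9 chips (25%), Smarca2, Dpf1 and Ss18l1. The neuronal subunit Ss18l1 stood at 27.2 ± 29.3, 115 ± 78.2 and 83.96 ± 68.6 CPM, with dividing cells at neuron levels and neurons within 1 SD of each other. Smarca2, the ATPase Brm, stood at 57.2 ± 42.2, 104 ± 55.1 and 199 ± 151. Of the lineage genes, 2 of 9 MGE, 1 of 8 CGE and 3 of 10 striatal genes were higher on 8 or 9 chips (5.83% of all genes) and 0 lower, and those given here were picked after their values were seen. Maf, a factor of MGE interneurons, was higher on all 9 chips at 4.20 ± 8.36, 65.4 ± 82.9 and 68.3 ± 73.1, and the interneuron peptide Sst on 8, at 14.4 ± 22.6, 198 ± 265 and 41.3 ± 49.1. Isl1 stood at 40.8 ± 44.7, 109 ± 98.2 and 355 ± 304 and was higher on 8 chips.

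**Figure D4:**
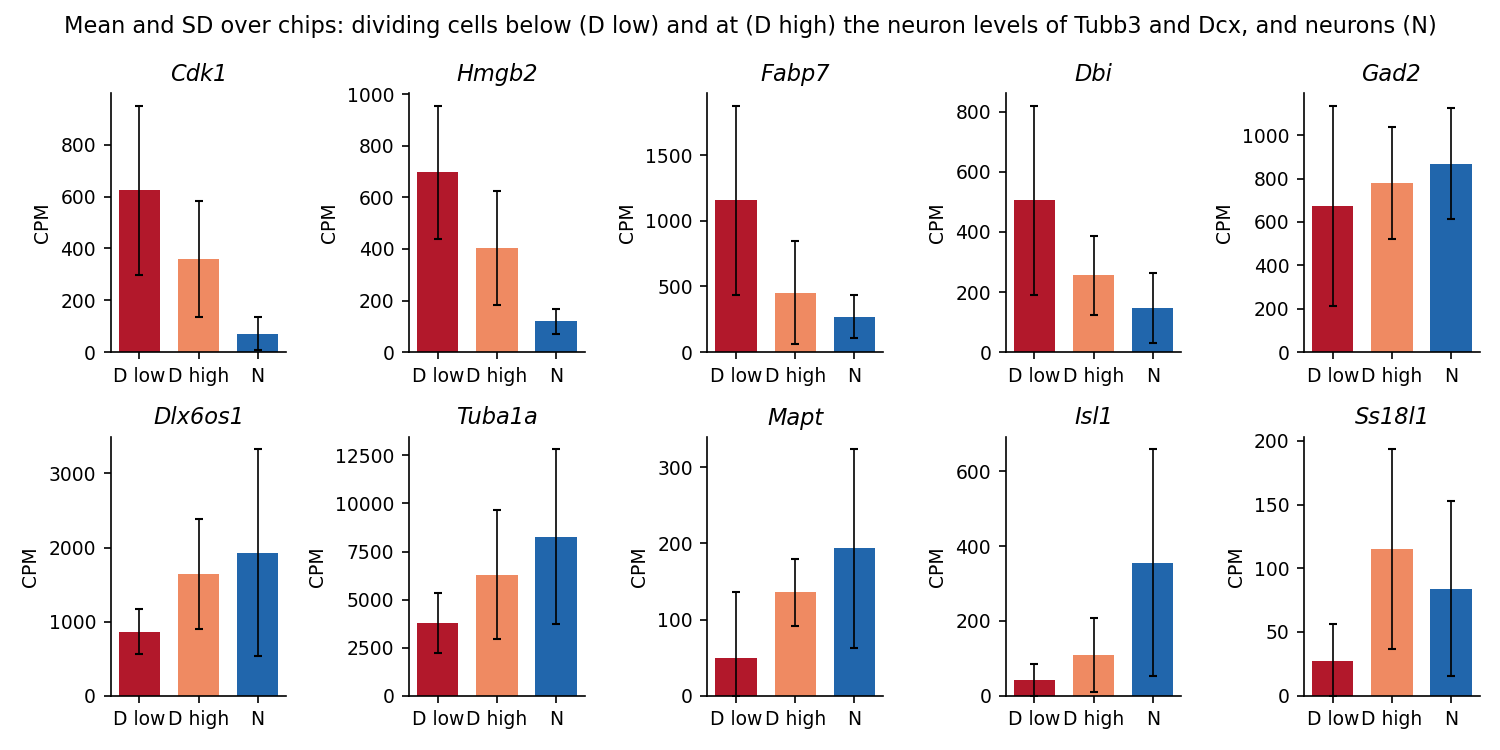
Mean level in CPM of 10 genes in dividing cells below the neuron levels of Tubb3 and Dcx (D low), dividing cells at them (D high) and neurons (N). Error bars are SD over 9 chips for dividing cells and 7 for neurons. Means of Cdk1, Hmgb2, Fabp7 and Dbi descend from left to right, those of Gad2, Dlx6os1, Tuba1a, Mapt and Isl1 ascend, and Ss18l1 is highest in the middle.

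The change of the contrast with age asked whether neurons differ from dividing cells in another way at E14.5 than at E12.5. The test of this difference called 0 of 11987 genes (0%), with 199 at an unadjusted p under 0.05 and a smallest adjusted p of 1. Top2b, the topoisomerase II of postmitotic cells, was among the 8 genes with the smallest p. At E12.5 it was at 1607 ± 621 CPM in neurons and 1032 ± 359 in dividing cells (n = 4 chips), higher in neurons on 3 of 4. At E14.5 it was at 526 ± 280.2 and 1135 ± 274 (n = 5), higher on 1 of 5. The change in log2 fold change was -1.77 ± 0.55 (SE) (edgeR unadjusted p = 0.00633, adjusted p = 1).

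The other 7 were 4930579G24Rik, Rabgap1l, Zfp438, Klhl15, Gtse1, Oplah and Cyb5r1, each near 0 in at least 1 class at 1 age. Klhl15, an adaptor of a ubiquitin ligase, was at 64.3 ± 49.4 in neurons and 17.7 ± 11.8 in dividing cells at E12.5 and at 1.24 ± 2.26 and 36.1 ± 55.02 at E14.5. Gtse1, a mitotic microtubule protein, was at 9.80 ± 11.7 and 6.37 ± 9.85 at E12.5 and at 0.108 ± 0.241 and 68.9 ± 62.7 at E14.5. Neither held against the number of genes tested (edgeR adjusted p = 1 for both).

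Set against MGE at E12.5, the contrast again gave no gene that passed: 0 of 11932 (0%), with 299 at an unadjusted p under 0.05 and a smallest adjusted p of 1. The MGE side had 4 chips, 3 of dMGE and 1 of vMGE, with 184 dividing cells and 42 neurons. Nuf2, a kinetochore protein, was at 198 ± 182 CPM in dividing cells and 139 ± 152 in neurons of CGE and at 149.5 ± 40.5 and 0.372 ± 0.359 in MGE. Prom1, the progenitor surface protein CD133, was at 75.8 ± 59.7 and 50.7 ± 31.7 in CGE and at 154 ± 113 and 0.507 ± 0.910 in MGE. Both were thus near 0 in MGE neurons only, but spread widely in CGE neurons. Tpgs2, a subunit of tubulin polyglutamylase, was higher in neurons on 4 of 4 MGE chips and 1 of 4 CGE chips, at 927 ± 154 against 386 ± 93.2 and at 527 ± 311 against 723 ± 305. The other 5 genes with the smallest p were 2610002M06Rik, Tbl1xr1, Slc30a5, Crb1 and Rexo5.

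Meis2, singled out after its values were seen, was at 497 ± 205 in dividing cells and 506 ± 226 in neurons of CGE. In MGE it was at 214 ± 118 and 13.7 ± 18.4, lower in neurons on 4 of 4 chips. The difference of the contrasts was 5.61 ± 1.59 (SE) on the log2 scale (edgeR unadjusted p = 0.00465, adjusted p = 1). For Nkx2-1, with 251 ± 130.1 and 119 ± 34.9 CPM in MGE against 39.7 ± 17.4 and 8.97 ± 16.4 in CGE, it was -3.65 ± 1.80 (SE) (unadjusted p = 0.0674 by edgeR, adjusted p = 1).

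Markers of other cells summed to a median over chips of at most 32.6 CPM in either class, with higher sums on single chips. Summed over 8 erythroid genes, dividing cells held 0.296 to 5460 CPM per chip with a median of 32.6, and neurons 0 to 59.3 with a median of 6.17. The highest value was on chip 162, and 2 dividing cells and 0 neurons had 10000 CPM or more of hemoglobin. Hbb-bs, a beta globin, had 1729 and 3504 CPM in dividing cells of chips 161 and 162, with the reserve that globin genes have near-identical copies. The part of these cells in the contrast was not tested. Excitatory pallial markers (7 genes, with Emx1 and Slc17a7 at 0 in both classes) summed to 0 to 421 CPM in neurons, highest on chip 175, and to 0 to 44.0 in dividing cells. Endothelial and microglial markers summed to at most 10.2 CPM in either class, pericyte and fibroblast markers to at most 146 in dividing cells and 24.6 in neurons, and oligodendrocyte precursor markers to at most 48.8 and 21.8.

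Immediate early genes, which dissociation can induce, showed no common direction: of 9 tested 3 had a fold change above 0 and 6 below, 0 were the same way on every chip, and the median was -0.10 (0.37 with equal cell numbers). Dusp1, a phosphatase of stressed cells, was at 356 ± 179 CPM in dividing cells and 684 ± 531 in neurons and higher on 8 of 9 chips (edgeR adjusted p = 0.536). Chip 175 had a median mitochondrial share of 5.36% of counts, against 0.815% to 2.80% on the other CGE chips.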

How the data were processed

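The authors deposited a table of raw counts of reads on each gene in each cell, made before any normalization and without molecular identifiers, so reads are not independent molecules. The submitters' processing notes name CASAVA, FastQC, STAR 2.4.0, SAMtools and HTSeq 0.6.1 and the build mm9. Whether counting used strand is not given in the sources used here. Of the count columns, 1790 cells of CGE and of E12.5 MGE were read and 879 were not used, and a deposited RPKM table was not used. Gene names came by identifier from GENCODE vM21 (32620 of 37310 matched). Promoter sequences came from RefSeq on GRCm38.p6, and no coordinate was mixed with the authors' build.

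No doublet caller was run, and the 14 cells that met the rules of both classes were left out. Cells of a class were summed per chip and fitted with edgeR 4.0.16 (R 4.3.3; TMM, filterByExpr, quasi-likelihood, chip as a block, class within age), with Benjamini-Hochberg adjustment over all genes tested and a threshold of 0.05. Same-numbered sums are the 2 classes of 1 chip, so the pairing comes from the chip itself. A second fit held E12.5 CGE and MGE. An SE given with an edgeR log2 fold change is that change without its sign, divided by the square root of the test's F. Alternatives were DESeq2 1.42.0, limma 3.58.1, other scalings, filters and gates, thinning to 50000 counts per cell, no block, and leaving out each chip. On thinned counts the classes were chosen again. The pipeline was tested on simulated data, where edgeR called no unchanged gene but recovered few changed ones. Genes named in the text are the 4 lowest adjusted p of each of 26 lists, members of the lineage, GABA, Notch, BAF and splicing lists, and the 8 smallest adjusted p at 20 CPM or more for age and region. The largest called changes would also have been named, but no gene was called. Some genes that these rules name are not reported here. Members and lists were chosen with earlier results of these data known.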

Additional observations from a re-analysis of the deposited data

Results flagged for a closer look

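For 156 groups of 4 to 6 chips the highest or lowest value was compared with the rest by Dixon's ratio, which picks about 1 in 20 groups by chance, and 19 stood apart. One was technical: chip 175 had a median mitochondrial share of 5.36% of counts, against 0.815% to 2.24% on the other E12.5 CGE chips. The others are differences of neurons minus dividing cells on 1 chip, on the scale log2(CPM + 1).

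At E12.5, chip 186 stood apart for the cyclin Ccnd2 at 0.047 (others -1.11 to -0.945), the Notch ligand Dll1 at -7.05 (0.352 to 0.608) and Chek2 at -7.68 (-4.88 to -4.62). Chip 182 did so for Tnc at -2.09 (-0.0357 to 0) and Nde1 at -2.18 (-7.0 to -6.18).

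At E14.5, the 8 neurons of chip 189-2 gave the lowest values for Dlx2 at -2.79 (others -0.197 to -0.0164), Gad1 at -4.85 (-0.258 to 1.49), Dlx6os1 at -3.36 (-0.397 to 0.723) and Ss18l1 at -4.04 (-0.102 to 1.25). The same chip gave the highest for Tuba1a at 1.52 (0.36 to 0.638), Ptbp2 at 1.81 (0.11 to 0.37) and Gpm6a at 2.23 (0.124 to 0.495). Chip 190-2 stood apart for Cdkn1b at -5.36 (-1.34 to -0.174), Crmp1 at 4.1 (0.211 to 0.993), Sp9 at 2.58 (-0.366 to 0.43), Foxp2 at -8.01 (-2.64 to -0.686) and Slit1 at -6.29 (-0.744 to 0.296). Chip 160 did so for Hmmr at -0.265 (-8.9 to -7.11).

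Dlx2 was higher in neurons on 4 of 4 chips at E12.5, with a log2 fold change of 0.81, and lower on 5 of 5 at E14.5, with -0.46. The test of that difference gave -1.26 on the log2 scale (edgeR unadjusted p = 0.177, adjusted p = 1), so the change with age did not pass.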

How the results depend on the processing

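The count of 0 genes for the mean of both ages held under all but 9 of 27 other settings, and under every setting that left out a chip. It became 1216 with DESeq2 (23 higher and 1193 lower), 42 with limma on log2(mean CPM + 1), 39 with limma on log2(mean CPM + 10), 1 without the 5% of cells with the most genes, 13 with each cell thinned to 50000 counts and 10 with stricter gates. Without the replicate block, that is without pairing the classes by chip, 3 genes were called. Alternatives added after the data were seen gave 6 without the dividing cells at neuron levels of Tubb3 and Dcx and 5 on the 4 chips below 3000 genes per cell. At E12.5 the count became 748 with DESeq2 and 2 on those 4 chips. At E14.5 it became 763, 1 with thinned cells and 9 on those chips. For the change with age it was 236 and 2, and against MGE 515 with DESeq2. The block changed no other call. Leaving out each chip gave 0 called genes in every comparison, a difference in the share of neurons of 7.59 to 16.3 percentage points (exact permutation p = 0.114 to 0.414) and a difference in detected genes of -461.4 to -346.4. Detected genes differed by -346.5 with at least 10 cells per class and by -433.4 with at least 2000 genes per cell, both on 6 chips with exact permutation p = 0.0625, where the smallest possible was 0.0312. The cause was not tested. Of 73 genes, 48 kept the sign of their fold change in every setting, 30 were called in at least 1, and 0 were called with the opposite sign.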
